A study of Mus musculus with 4 samples.

Results

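The regions described here lie in the megabases of the mouse autosomes that hold the most probes of a DNA methylation array. Each autosome of the mm9 build was divided into bins of 1 Mb from position 0, and the 145 bins with 500 or more probes were kept, after a stretch of chromosome 17 from 34.0 to 36.4 Mb had been left out. They are 6.91% of the 2098 autosomal megabases with probes, and they hold 98799 (23.8%) of the 415749 usable probes. Probes whose starts lay at most 500 bp apart were joined into regions of up to 2000 bp with 3 or more probes, and 13351 such regions were found in the probe-dense megabases, against 56653 on the whole array. The rule used probe positions alone and read no array signals, though the signals vary with probe count, as described below.

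The array compared DNA from livers of C57BL/6J mouse fetuses collected on gestation day 18. In the food restricted pool, the dams had received 50% of the chow consumed by controls from gestation day 10 to 17. In the control pool, the dams had eaten freely. Each group was 1 pool of liver DNA, described as N = 6 without saying whether fetuses or litters were counted. The methylated fraction, captured by immunoprecipitation, was hybridised against total genomic DNA of the same pool, once in each dye orientation, so that the 4 arrays on 2 slides hold 2 technical repeats of each pool. With 1 pool per group no replicate checks the difference, and no p-value was computed. The assignment of arrays to pools follows the scanner files and could not be settled from the data, as described under processing. Fetal liver holds hepatocytes and blood-forming cells, and a change in their proportions cannot be told apart from a change within one of them. The files name probes by position and not by gene, so the tissue was not checked against marker genes.

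DNA methylation in mammals is the addition of a methyl group to cytosine, mostly where a guanine follows. CpG islands, the short CpG-rich stretches at many promoters, are mostly free of methylation, while the bodies of active genes, repeats and the rest of the genome are mostly methylated. Precipitation of methylated DNA (MeDIP) enriches fragments that hold many methylated CpGs, so a CpG-rich methylated fragment gives a high ratio, and an unmethylated island or a CpG-poor fragment gives a low one whatever its methylation. M is immunoprecipitated over reference signal as a log2 ratio, centred on the median of the array, and D is the distance in M on a slide, food restricted minus control. M thus ranks fragments within an array and gives no methylation percentage.

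The probe-dense megabases were spread unevenly over the autosomes. Chromosome 7 had 23 of them, chromosomes 2 and 11 had 17 each, and chromosomes 12, 16 and 18 had 1 each. Chromosome 7 also carries the most protein-coding genes among the autosomes, 2030 in the RefSeq annotation of GRCm38, and chromosome 18 the fewest, 511. Across the 19 autosomes the number of probe-dense megabases correlated with the number of protein-coding genes at r = 0.85, a description over chromosomes that also differ in length. At this scale the distribution of the probe-dense megabases follows gene number. Which genes lie inside each megabase was not looked up, because an annotation of mm9 was not used here, and for the same reason no genomic sequence of the regions is shown. The 145 megabases formed 86 runs, of which 52 were single megabases. The longest run spanned 6 Mb on chromosome 2, from 84 to 90 Mb.

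Regions of the probe-dense megabases were tiled like the others, with 7 probes and 1334 bp in the median, against 1322 bp in the other autosomal regions. Their signals were brighter in both channels. In the reference DNA, the median log2 signal of their probes lay above the array median by 0.21 and 0.23 on the food restricted arrays (slide 1, slide 2) and by 0.22 and 0.24 on the control arrays. In the immunoprecipitated DNA it lay above by 0.37 and 0.35 on the food restricted arrays and by 0.37 and 0.36 on the control arrays. Both channels were thus brighter on all 4 arrays. Well above background in the immunoprecipitated channel were 82.4% and 82.8% of their probes on the food restricted arrays and 75.6% and 75.2% on the control arrays. For the other autosomal probes the shares were 80.4% and 81.3% on the food restricted arrays and 72.6% and 72.5% on the control arrays. On each array the probe-dense megabases thus had the larger share of such probes in this channel. In the reference channel this held on slide 1 alone. On slide 2 the shares were 97.6% against 97.8% (food restricted) and 96.9% against 97.2% (control). Counted by regions, 10.7% of the probe-dense ones were dim in both pools, as defined below, against 8.50% of the other autosomal ones. The shares were 10.9% against 8.76% in the food restricted pool and 16.6% against 16.8% in the control pool.

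More regions of the probe-dense megabases were strongly enriched than elsewhere on the autosomes. M was above 1, that is 2-fold above the array median, in 30.6% and 30.7% of the 13351 regions on the food restricted arrays and in 32.7% and 32.1% on the control arrays. Among the 41194 other autosomal regions it was above 1 in 27.1% and 28.2% on the food restricted arrays and in 29.3% and 29.6% on the control arrays. Over all regions of the array the share was 27.8% in the food restricted pool and 29.7% in the control pool. The probe-dense share was the higher one on every array, and it exceeded that of the other autosomal regions by 2.99 percentage points in the mean of the pools. Averaged over the arrays of a pool, the share was 30.5% in the food restricted pool (exact Clopper-Pearson 95% interval 29.7% to 31.3%) and 32.3% in the control pool (31.6% to 33.2%). These intervals treat regions as independent draws, although neighbouring regions correlate, and both pools were measured over the same regions. They cover counting error over regions of 1 pool and not the animals, and they do not compare the pools. The direction held under background correction with normexp, quantile normalization and other centrings, but it turned with loess normalization, where the distance was -4.40 points. At the other end, M was below -1 in 19.8% and 20.3% of the probe-dense regions on the food restricted arrays and in 26.0% and 26.2% on the control arrays, slightly fewer than the 21.7%, 22.0%, 27.8% and 27.9% of the other regions in the same order of arrays.

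**Figure D1:**
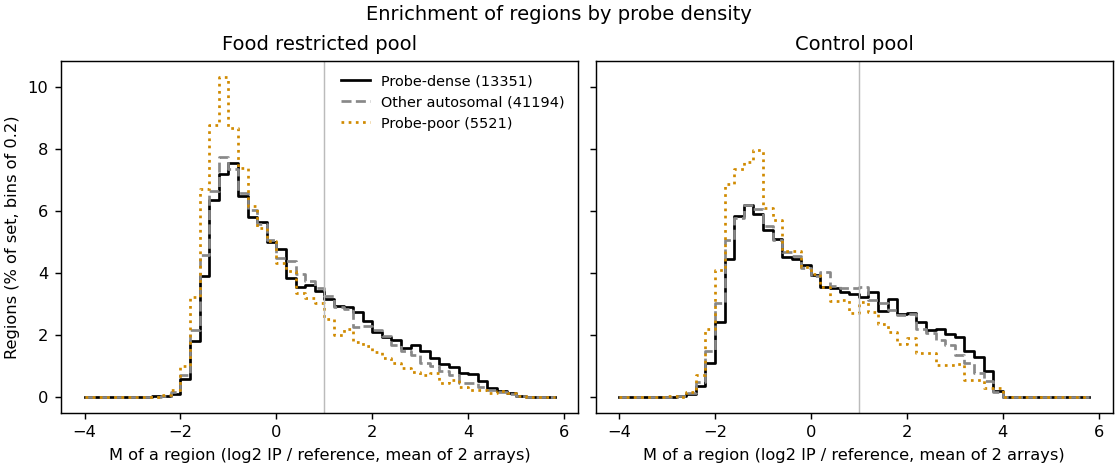
Distribution of M, the mean of the 2 arrays of a pool, in bins of 0.2, as a percentage of the regions of each set, for the food restricted pool (left) and the control pool (right). The black line shows the 13351 probe-dense regions, the grey dashed line the 41194 other autosomal regions and the dotted line the 5521 regions of megabases with fewer than 100 probes. The grey vertical line marks M of 1. All sets peak near -1 with a long shoulder to the right, and beyond M of 3 the probe-dense line lies highest over most of the range.

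The gradient with probe count was not uniform. In megabases with fewer than 100 probes M was above 1 in 18.9% and 20.2% of regions on the food restricted arrays and in 20.8% and 21.8% on the control arrays. In those with 400 to under 500 probes it was above 1 in 32.3% and 32.5% on the food restricted arrays and in 34.5% and 33.9% on the control arrays. On all 4 arrays the share increased with each class up to that point, and on all 4 it was lower again at 500 or more probes. With loess the probe-dense share was below the probe-poor one, 14.0% against 16.9% in the mean of the arrays. The 15 megabases just inside the rule, with 502 to 519 probes, had between 1.45% and 50.7% of regions with M above 1, with a median of 30.7%. The 22 just outside, with 480 to under 500 probes, had between 4.69% and 57.5%, with a median of 34.8%.

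**Figure D2:**
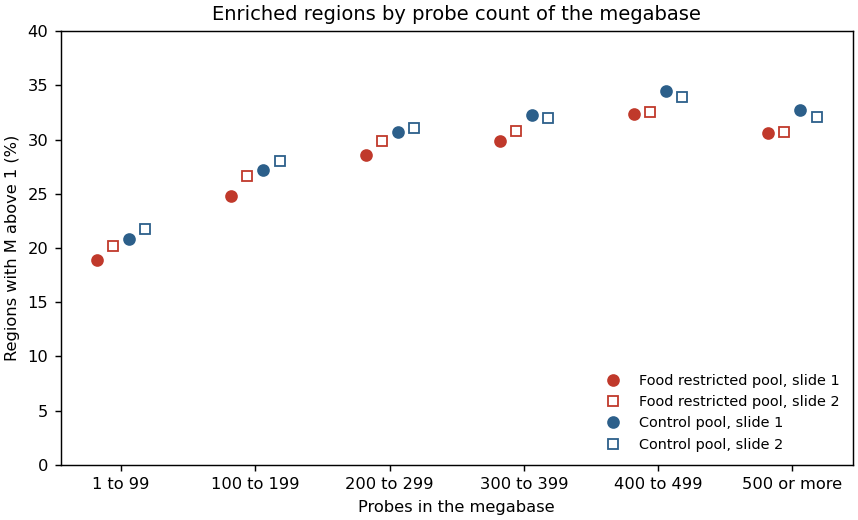
Percentage of autosomal regions with M above 1 by the number of probes in their megabase, on each array. Red marks the food restricted pool and blue the control pool, with filled circles for slide 1 and open squares for slide 2. The shares increase up to the class below 500 probes and are lower at 500 or more.

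Enrichment differed widely among the probe-dense megabases and did so in the same way in both pools. By the mean of the 4 arrays, the share of regions with M above 1 ranged from 0 to 54.0% over the 145 megabases, with a median of 33.8%. Across them, the share correlated between the food restricted arrays at r = 0.986, between the control arrays at r = 0.982, and between the pools at 0.988 on slide 1 and 0.991 on slide 2. These are descriptions over megabases measured on the same arrays. In 40 megabases 40% or more of the regions had M above 1, in 9 fewer than 5% did. These were 27.6% and 6.21% of the probe-dense megabases, against 19.9% and 5.64% of the 1366 other autosomal megabases with 10 or more regions. Still, only 12.4% of the variance of M among the 13351 regions lay between megabases, and the rest lay among regions of the same megabase. For regions whose gap was at most 500 bp, M of a region and of the next correlated at r = 0.32 (5834 pairs), and for gaps between 20000 and 100000 bp at r = 0.11 (1805 pairs).

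The megabase with the highest share lay on chromosome 8 from 125 to 126 Mb. Of its 87 regions 46 and 43 had M above 1 on the food restricted arrays and 49 and 43 on the control arrays, and its median M was 1.08 and 0.99 on the food restricted arrays and 1.15 and 0.99 on the control arrays. It was followed by chromosome 15 from 99 to 100 Mb, with a median M of 1.34 and 1.13 on the food restricted arrays and 1.32 and 1.40 on the control arrays. Next came chromosome 7 from 25 to 26 Mb, with 1.05 and 0.94 on the food restricted arrays and 1.08 and 1.11 on the control arrays. In all of these the interquartile range of M was above 2.3, so that weakly enriched regions were present beside strongly enriched ones, and the pools overlapped.

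The megabases with the most probes differed in level. The megabase with the most probes, chromosome 7 from 52 to 53 Mb with 1328, had a median M of 0.95 and 0.90 on the food restricted arrays and 1.1 and 0.90 on the control arrays. Chromosome 10 from 80 to 81 Mb, with 1206 probes, had 0.79 and 0.69 on the food restricted arrays and 0.82 and 0.69 on the control arrays. Chromosome 7 from 148 to 149 Mb, with 1170 probes, had 0.30 and 0.38 on the food restricted arrays and 0.42 and 0.21 on the control arrays. In contrast, chromosome 2 from 25 to 26 Mb, with 1134 probes, lay below the array median, with -0.02 and -0.12 on the food restricted arrays and -0.05 and -0.21 on the control arrays. The fifth, chromosome 18 from 37 to 38 Mb with 1121 probes, had 0.37 and 0.55 on the food restricted arrays and 0.33 and 0.73 on the control arrays. Across the 145 megabases the probe count and the share of regions with M above 1 correlated at r = 0.16.

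As elsewhere on the autosomes, where 77 of 1366 megabases had fewer than 5% of regions above 1, a few probe-dense megabases were almost without strongly enriched regions. These 9, singled out after their values had been seen, were chromosome 2 from 87 to 90 Mb and from 111 to 112 Mb, chromosome 3 from 92 to 93 Mb, chromosome 7 from 115 to 116 Mb, chromosome 9 from 38 to 39 Mb, chromosome 10 from 129 to 130 Mb and chromosome 19 from 13 to 14 Mb. Their 790 regions had a median M of -1.04 and -0.93 on the food restricted arrays and -1.17 and -0.99 on the control arrays. In the other 136 megabases the median was 0.12 and 0.07 on the food restricted arrays and 0.16 and 0.10 on the control arrays. M was above 1 in 1.27% and 2.03% of the 790 regions on the food restricted arrays and in 1.27% and 4.43% on the control arrays, against 32.5% on both food restricted arrays and 34.7% and 33.8% on the control arrays in the other 136. As background, the mouse genome carries tandem arrays of olfactory receptor genes on several chromosomes, 2, 7, 9, 10 and 19 among them, and a cluster of epidermal differentiation genes on chromosome 3. Whether the 9 megabases hold them was not looked up.

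The lowest of all, chromosome 9 from 38 to 39 Mb, had 102 regions and a median M of -1.21 and -1.05 on the food restricted arrays and -1.40 and -1.19 on the control arrays. None of its regions was above 1 on the food restricted arrays, and 0 and 2 were on the control arrays. The next, chromosome 2 from 87 to 88 Mb, had 1 and 2 of 110 regions above 1 on the food restricted arrays and 1 and 5 on the control arrays. After it, chromosome 2 from 88 to 89 Mb, had 0 and 1 of 97 on the food restricted arrays and 0 and 2 on the control arrays. Within such a megabase the regions were alike, with an interquartile range of M of 0.64, 0.77 and 0.90 in these 3, against a median of 2.23 over all 145. The level was not the same along the 6 Mb run on chromosome 2. Its first megabase, from 84 to 85 Mb, had 24.3% of regions above 1 in the mean of the arrays, and the next 2 had 9.47% and 7.34%.

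The low megabases were also dim. Their median reference signal was -1.13 and -1.20 on the food restricted arrays and -1.30 and -1.38 on the control arrays, against values between 0.30 and 0.34 in the other 136, all on the log2 scale and centred on the array. The immunoprecipitated signal was not well above background in either pool in 73.7% of their regions, against 6.74% in the others, so M is poorly measured there. Of all 145 megabases, 17 had a median reference signal below -0.5, and in 16 of them fewer than 13% of regions had M above 1. The exception was chromosome 18 from 37 to 38 Mb, with a median reference signal of -0.65 and 43.4% of regions above 1. On chromosome 11 from 99 to 100 Mb a reference signal of -0.41 likewise stood beside 43.2%. Across the 145 megabases the reference signal and the share correlated at r = 0.75, but the reference signal is also the denominator of M. The part of brightness in the low shares was not tested.

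**Figure D3:**
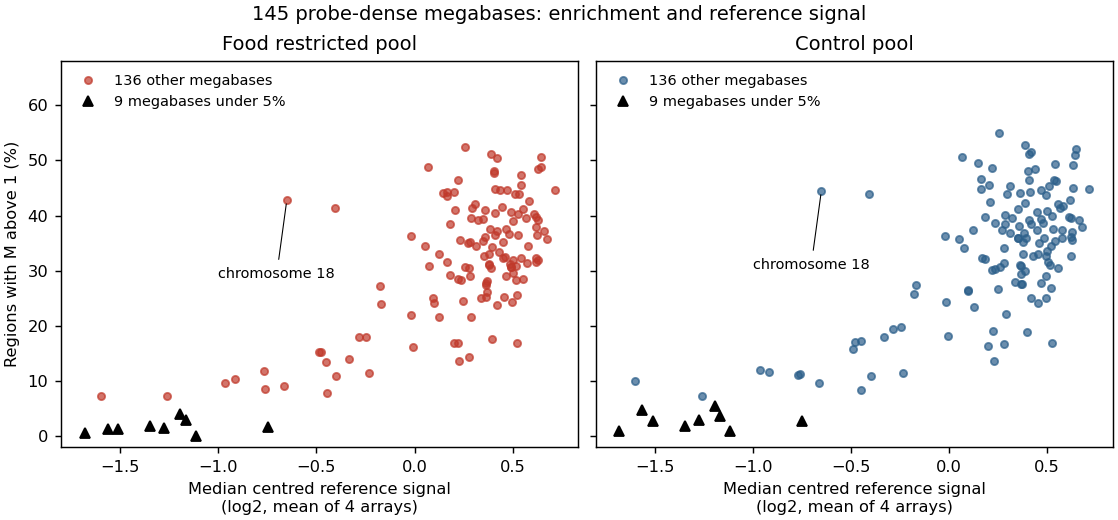
Percentage of regions with M above 1 (mean of the 2 arrays of the pool) against the median reference signal (log2, centred per array, mean of the 4 arrays) for the 145 probe-dense megabases, in the food restricted pool (left) and the control pool (right). Black triangles mark the 9 megabases with fewer than 5% of regions above 1 and circles the other 136. Dim megabases have low shares, except the labelled one on chromosome 18 and a second one on chromosome 11.

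Chromosome 2 holds 4 of the 9 low megabases, and with all its probe-dense megabases only 18.1% and 19.6% of its regions were above 1 on the food restricted arrays and 19.96% and 21.8% on the control arrays. On chromosome 15, which holds none of them, 41.6% and 41.5% were above 1 on the food restricted arrays and 43.9% and 43.0% on the control arrays. In 13 of the 19 autosomes the probe-dense regions had a higher share above 1 than the other regions of the same chromosome. The distances lay between -8.15 points on chromosome 2 and 15.6 points on chromosome 18, where 1 megabase with 152 regions was probe-dense. Of the 16 autosomes with 200 or more probe-dense regions, 11 had the higher probe-dense share.

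Long tiled stretches stood out in the probe-dense megabases. A stretch is a series of probes with no gap above 500 bp, before it was divided into regions. In stretches over 5000 bp, M was above 1 in 37.4% and 36.2% of 1490 regions on the food restricted arrays and in 39.8% and 37.2% on the control arrays. Elsewhere on the autosomes the same kind of stretch gave 25.6% and 26.8% of 2999 regions on the food restricted arrays and 27.6% and 28.1% on the control arrays. Between 1000 and 2000 bp the sets hardly differed, with 29.7% and 30.6% of the probe-dense regions on the food restricted arrays and 31.8% and 31.5% on the control arrays, against 29.5%, 30.7%, 31.4% and 32.0% of the other regions in the same order of arrays. No single megabase held more than 2.75% of the 1490 regions. With loess normalization the order of the long stretches turned, with 14.3% above 1 in the probe-dense and 16.6% in the other ones in the mean of the arrays.

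The comparison of the pools asked where methylation differed after maternal food restriction. In the probe-dense megabases 640 regions (4.79%) had a higher M after food restriction, where D had to reach 0.5, that is 1.41-fold, on each slide. Among all regions of the array the share was 4.55%, and among the other autosomal regions 4.44%. Lower were 103 regions (0.771%), against 0.643% of all regions and 0.553% of the other autosomal ones. A further 91 regions passed the size with opposite signs on the slides, or 45.5 per direction. This is no estimate of chance calls, because D shifted with the level of M, and pool and array position cannot be told apart. In the main setting the shares of higher and lower calls are thus near the background of the array. With normexp 3.76% of the probe-dense and 2.49% of the other autosomal regions were called higher, and with loess 10.4% and 8.08%. Whether such distances are particular to the probe-dense megabases was not tested. Higher regions made up 86.1% of the calls, but 50.3% with quantile normalization, 39.1% with arrays centred on their densest value, 93.5% without centring, 99.8% with normexp and 96.9% with loess.

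The median D of the 13351 regions was 0.03 on slide 1 and 0.09 on slide 2, against 0.04 and 0.09 in the other autosomal regions. Centred on the densest value, the mean of the slides became -0.13, so the sign of this shift rests on the centring. Over the regions, the D values of the slides correlated at r = 0.37. In single megabases the median D lay between -0.09 and 0.23 on slide 1 and between -0.08 and 0.22 on slide 2. It was above 0 on both slides in 97 of the 145 megabases, below 0 on both in 2 and of different sign in 46. Its median over the megabases was 0.03 and 0.09, as in the 1366 other autosomal megabases with 10 or more regions. Centred on the densest value, the median D of the probe-dense megabases was above 0 on both slides in 0 and below 0 on both in 119. The medians of the megabases correlated between the slides at r = 0.11 in the main setting, and at 0.87 with normexp. Only 1.48% of the variance of D lay between megabases on slide 1 and 2.58% on slide 2.

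**Figure D4:**
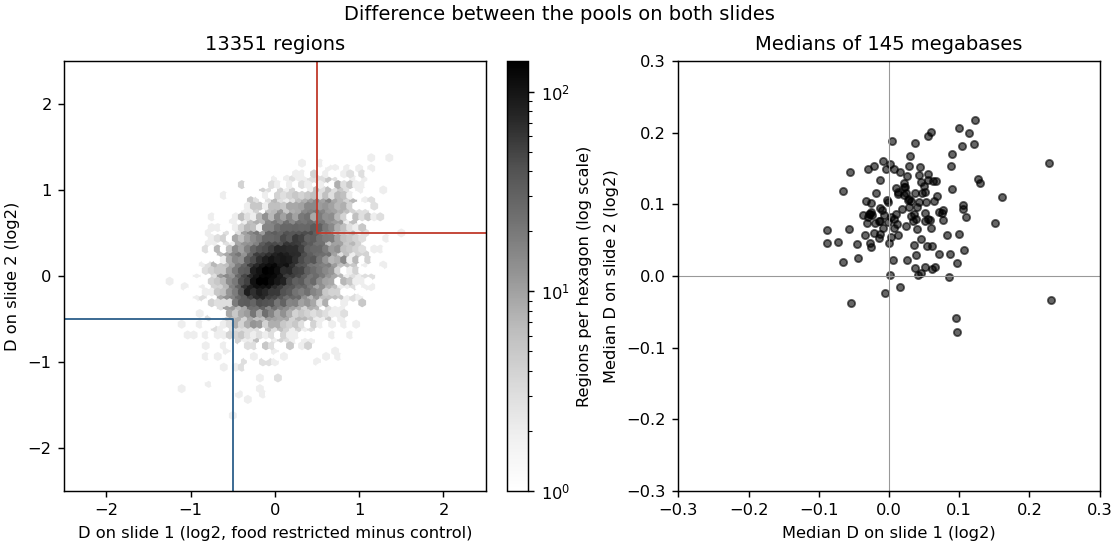
D, the log2 difference of food restricted minus control pool, on slide 1 (horizontal axis) and slide 2 (vertical axis), for the 13351 probe-dense regions (left, shading gives regions per hexagon on a log scale) and as medians of the 145 megabases (right). The red corner encloses the 640 regions called higher and the blue corner the 103 called lower. Regions correlate at r = 0.37 and megabase medians at r = 0.11.

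Although higher calls outnumbered lower ones, fewer probe-dense regions were above 1 in the food restricted pool, and this held in 105 of 145 megabases on slide 1 and in 102 on slide 2. The other autosomal regions had the same order, with 27.5% above 1 in the food restricted and 29.4% in the control pool. In the probe-dense regions the order of the pools turned with normexp (17.3% in the food restricted and 14.2% in the control pool) and loess (18.1% and 9.41%). Quantile normalization gives all arrays the same distribution of probe values, and the shares were then nearly equal (31.5% and 31.4%). The pools differed with the level of enrichment. When all regions of the array were ranked by mean M and divided into 10 equal classes, 423 of the 640 higher regions lay in the 5 lowest classes, 202 in the highest class and 15 between. In the highest class, 12.4% of 1627 regions were called higher and 0 lower. The other autosomal regions of that class gave 12.4% as well. In class 3, 7.14% of the probe-dense and 4.87% of the other regions were called higher, and 1.15% and 0.467% lower. With the other regions' shares weighted to the levels of the probe-dense regions, 4.54% would be called higher and 0.539% lower. The probe-dense share of lower calls was above that of the other regions in 6 of the 10 classes, and the share of higher calls in 5. Of the 202 regions of the highest class none was called after D had been detrended by a running median over mean M, and none with quantile normalization. Both steps take off differences that follow the level of M, so neither result can decide whether these regions differ. With normexp the highest class held 495 higher calls and classes 1 to 5 held 7, and with loess 1135 and 77, so the split between low and high classes turned over.

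**Figure D5:**
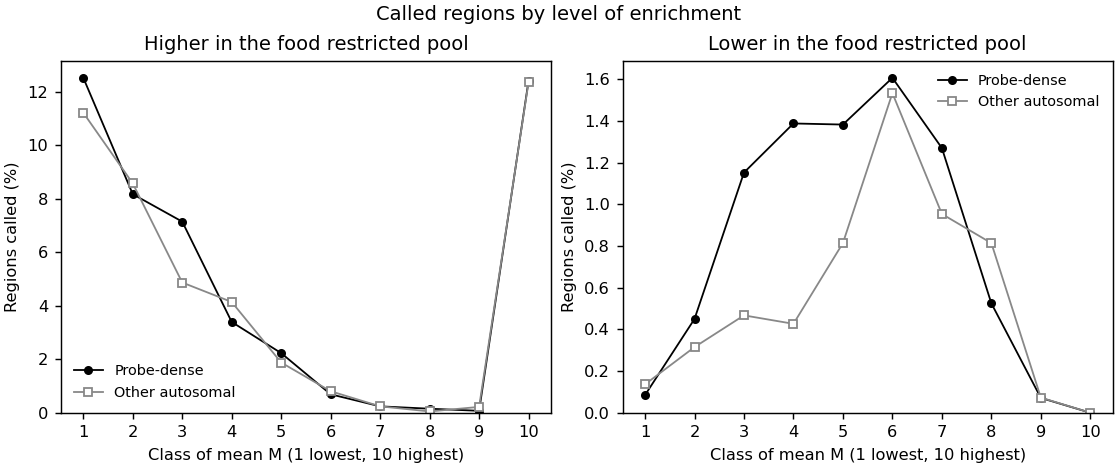
Percentage of regions called higher (left) and lower (right) in the food restricted pool, by class of mean M over the 4 arrays (1 lowest, 10 highest, edges from all regions of the array). Black circles show the probe-dense regions and grey squares the other autosomal regions. Higher calls lie at both ends of the range in both sets, and lower calls in the middle.

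The channels behind the higher calls differed between these groups. In the 202 regions of the highest class, the median M was 4.34 and 4.25 on the food restricted arrays and 3.68 and 3.45 on the control arrays. Food restricted minus control, their centred immunoprecipitated signal differed by -0.37 on slide 1 and -0.31 on slide 2, and their reference signal by more, -0.70 and -0.75. Over all 1627 probe-dense regions of that class, called or not, the immunoprecipitated signal differed by -0.39 and -0.32. Their reference signal differed by -0.38 and -0.41, so the fall in the immunoprecipitated channel was not particular to the called regions. In the 423 regions of classes 1 to 5, M was -0.84 and -0.90 on the food restricted arrays and -1.62 and -1.66 on the control arrays. Here food restriction came with a higher immunoprecipitated signal, by 0.54 and 0.49, and a higher reference signal, by 0.18 on each slide. Over all probe-dense regions, called or not, the immunoprecipitated difference fell from 0.26 and 0.21 in class 1 to -0.05 and -0.04 in class 5. In 146 of the 423 the control pool was dim, against 2216 (16.6%) of all 13351 probe-dense regions. Dim means that under 50% of the probes of a region carried the well-above-background flag in the immunoprecipitated channel on both arrays. When only the immunoprecipitated signal was compared, 141 of the 640 higher calls and 10 of the 103 lower calls were kept.

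Lower calls gathered in dim megabases. The 9 low megabases held 30 of the 103 lower regions, or 3.80% of their regions, against 0.581% in the other 136. The 17 megabases with a reference signal below -0.5 held 50 of them, or 3.05%, against 0.452% in the other 128. Opposite signs were frequent in the same 17 megabases as well, with 2.56% against 0.418%, so these calls stood beside a larger disagreement between the slides. In 58 of the 103 lower regions the immunoprecipitated signal was dim in both pools, against 1428 (10.7%) of all 13351 probe-dense regions. Without probes of dim reference signal or saturation 28 lower regions were called.

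Of the higher regions, 431 had 5 or more probes and were dim in neither pool, and the 5 with the largest D on the weaker slide are described. The first, 768 bp on chromosome 2 from 32732042 to 32732809 (5 probes), was weakly enriched. Its M was -0.77 and -0.80 on the food restricted arrays and -2.07 and -2.17 on the control arrays, with no overlap, and its mean D of 1.33 corresponds to 2.52-fold. The immunoprecipitated signal was higher by 0.92 and 1.97 on the slides. With normexp its mean D was 0.16, and too few of its probes remained for a value without those of dim immunoprecipitated signal.

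The other 4 lay in the highest class of mean M. The region on chromosome 7 from 29243549 to 29244564 (6 probes) had an M of 5.17 and 5.06 on the food restricted arrays and 4.05 and 3.88 on the control arrays. The region on chromosome 10 from 79632808 to 79634428 (9 probes) had 5.21 and 4.92 on the food restricted arrays and 4.08 and 3.66 on the control arrays. Among probe-dense regions with 5 or more probes, the mean M of these 2 was exceeded by that of 1 region alone, chromosome 7 from 4870338 to 4872292, with 5.21 and 5.0 on the food restricted arrays and 4.22 and 3.75 on the control arrays. The region on chromosome 4 from 151415137 to 151416091 (6 probes) had 5.0 and 4.87 on the food restricted arrays and 3.81 and 3.76 on the control arrays. The region on chromosome 15 from 98488340 to 98489142 (6 probes) had 4.98 and 5.05 on the food restricted arrays and 3.92 and 3.63 on the control arrays. In all 4 the food restricted arrays lay above the control arrays by a mean D between 1.15 and 1.24. The higher ratio came with a lower reference signal, by differences between -0.66 and -1.37, and in the immunoprecipitated channel alone the mean D of these 4 lay between -0.34 and -0.09. With quantile normalization their mean D fell to between 0.08 and 0.32, and after detrending by the running median to between 0.35 and 0.45. It was between 0.97 and 1.32 with normexp and between 1.85 and 2.03 with loess.

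Of the lower regions, 23 had 5 or more probes and were dim in neither pool. The first was on chromosome 1 from 174137477 to 174138804 (7 probes), with an M of -0.37 and 0.38 on the food restricted arrays and 0.80 and 1.54 on the control arrays. The next was on chromosome 12 from 85745634 to 85746758 (6 probes), with -1.06 and -0.16 on the food restricted arrays and 0.08 and 1.05 on the control arrays. A region on chromosome 11 from 115791569 to 115793105 (7 probes) had -0.78 and 0.06 on the food restricted arrays and 0.25 and 1.28 on the control arrays. On each slide the food restricted array was the lower one in these 3, by 2.18-fold to 2.25-fold in the mean. Chromosome 2 from 130272759 to 130274201 was 1.83-fold lower in the mean. For chromosome 13 from 21400578 to 21401810 M was lower as well, by 1.88-fold. These calls did not hold when the dim probes within the regions were left out. Without dim reference or saturated probes the mean D of the 5 lay between -0.15 and 0.34, and with normexp between -0.12 and 0.00.

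The megabase with the most higher calls by number was chromosome 15 from 76 to 77 Mb, with 13 of 126 regions (10.3%). It was followed by chromosome 10 from 79 to 80 Mb, with 11 of 157 (7.01%), and from 80 to 81 Mb, with 11 of 175 (6.29%). Their median D was 0.06 and 0.13 on the slides for the first, 0.06 and 0.20 for the second and 0.04 and 0.10 for the last, against 0.03 and 0.09 in the median of the 145 megabases. Over the 145 megabases the share of higher calls had a median of 4.35% and an upper quartile of 6.49%. The largest share, 12.7%, was on chromosome 11 from 49 to 50 Mb, with 9 of 71 regions. In 90 of the 145 megabases no region was called lower, and in 2 none was called higher. The 1366 other autosomal megabases with 10 or more regions had 0 lower and 1 higher call in the median. They held 24 regions in the median, against 88 in the probe-dense ones.

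The regions with the lowest M were dim in both pools. They lay on chromosome 13 from 21650714 to 21651352, with a mean M of -2.35, on chromosome 7 from 109875284 to 109876520, with -2.33, and on chromosome 9 from 20266713 to 20267513, with -2.32. On the food restricted arrays the first of them had -2.81 and -1.77 and on the control arrays -2.21 and -2.61, so the slides put the pools in opposite order.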

How the data were processed

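Fetal liver DNA of 1 food restricted and 1 control pool was measured on 4 two-colour tiling arrays. Per the labels, immunoprecipitated DNA carried one dye and total DNA the other, exchanged between the slides. Agilent Feature Extraction 10.5.1.1 made the scanner files, per the submitters' processing notes. No antibody is named in the labels used here. The deposited intensity of each channel was background-subtracted and dye-scaled within the array, per the file headers, which also give mm9 positions. Flags deposited as other columns (outlier, saturated, well above background) were used as given, and 65 flagged probes of 415814 were left out.

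The deposited value table holds log2 ratios, red over green. Its columns for the food restricted pool on slide 1 and the control pool on slide 2 equal each other's scanner file at 100% of probes (tolerance 0.001), so the scanner files, whose ratios fit the dyes in the titles, were the main source. This fit checks the dyes and not the pools, so which of these arrays belongs to which pool could not be settled from the data. Were the columns of the value table right, each slide would hold 1 pool. D and the calls would then be no difference between the pools. Pool and array position cannot be told apart. Both food restricted labels carry the note Dye-swap, though their titles give opposite dyes.

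Here log2 ratios were turned by dye, centred on the array median and summarised as medians over joined probes, with stretches over 2000 bp divided evenly (Python 3.11.15, pandas 2.3.3). The calling rule was tested on simulated data. Normexp, on median spot signals because mean signals are not in the columns used, and loess came from limma 3.58.1. Named regions were the largest calls by the smaller D, and named megabases those with most probes, most calls and extreme shares. Members and rules were chosen with earlier results of these data known.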

Additional observations from a re-analysis of the deposited data

How the results depend on the processing

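The number of arrays and 1 pool per group limit every result, and many lower calls rest on dim signals. In 21 of 23 alternatives higher regions outnumbered lower ones, the exceptions being the densest value and the running median. The alternatives reuse the same arrays and are not independent, and the one on the deposited value table repeats the scanner ratios. Higher and lower regions, 640 and 103 in the main setting, numbered 1391 and 44 with loess, 159 and 157 with quantile normalization, 197 and 307 centred on the densest value, 402 and 210 in the immunoprecipitated channel alone, 418 and 10 without dim immunoprecipitated probes, and 27 and 11 at a size of 1. Higher regions numbered 1012 without centring and 149 with the running median taken off. Lower regions numbered 1 with normexp, 28 without dim reference or saturated probes, 31 with means over probes and 65 with 5 or more probes per region. With 1 slide only, 1598 to 1828 were higher and 511 to 519 lower. No replicate block, that is D taken across the slides, gave 59 lower regions, and same-slide pairing comes from the file headers. The share with M above 1 in the food restricted and the control pool was 17.3% and 14.2% with normexp, 18.1% and 9.41% with loess, 31.5% and 31.4% with quantile normalization, 28.2% and 28.6% without centring, 47.2% and 51.9% on the densest value, 29.0% and 30.5% centred on the member probes, 44.1% and 46.4% without dim immunoprecipitated probes, 31.6% and 33.3% at 600 or more probes per megabase, 32.2% and 33.7% with a joining gap of 250 bp, and 32.3% and 34.2% without the 9 low megabases, an alternative chosen after seeing the data that removes low shares from the probe-dense side alone and so raises the share by construction. In the food restricted pool it was also 31.3% without dim reference or saturated probes and 31.5% with means. Thus the order of the pools turned with normexp and loess. It was nearly even with quantile normalization, which gives all arrays the same distribution of probe values. The distance from the other autosomal regions was -4.40 points with loess, 1.97 on the densest value, 1.32 without dim immunoprecipitated probes, 4.34 at 400 or more probes, 3.93 at 600 or more and 4.84 without the low megabases. The median D, 0.06 in the mean of the slides, was 0.0057 with quantile normalization, 0.14 without centring, -0.13 on the densest value, -0.0025 with the running median and -0.15 in the immunoprecipitated channel. Its distance from the other regions, -0.0027 in the main setting, was 0.011 with normexp and 0.017 with loess. Of the named higher regions, those on chromosomes 7, 10, 15 and 4 had a mean D of -0.34, -0.22, -0.0857 and -0.26 in the immunoprecipitated channel. Of the lower ones, that on chromosome 11 had 0.11 with loess and 0.0849 without dim reference probes, that on chromosome 13 had 0.0759 with loess and 0.34 without either kind of dim probe, that on chromosome 1 had 0.32 without dim immunoprecipitated probes, and that on chromosome 2 had 0.0588 without dim reference probes and 0.0001 with normexp. Classes of mean M are given with the counts. The cause of these changes was not tested.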
